A study of Mus musculus with 13 samples.

Results

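The mRNAs of 10 circadian clock genes were followed in mouse lung: Arntl, Clock, Per1, Per2, Per3, Cry1, Cry2, Nr1d1, Nr1d2 and Dbp. They were taken by symbol from the 32544 gene symbols of the count table, all 10 had a row, and all 10 passed the filter on low counts. Lungs came from male wild-type C57BL/6J mice, 7 weeks old when purchased, that breathed 21% oxygen (normoxia, 7 mice) or 80% oxygen (hyperoxia, 6 mice) for 5 days. Lungs were perfused and frozen, and polyadenylated RNA was read by Quant-seq, which counts transcripts from their 3′ ends. Each mouse gave 1 library and was sampled once. The hour of tissue collection is not given in the sources used here.

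The circadian clock is a transcriptional feedback loop that runs in almost every cell, lung included. The proteins of Arntl (BMAL1) and Clock bind E-box elements and drive Per, Cry, Nr1d and Dbp genes. The PER and CRY proteins then inhibit BMAL1 and CLOCK, while the REV-ERB receptors of Nr1d1 and Nr1d2 repress Arntl, so that across the day Arntl mRNA peaks when Dbp, Nr1d1 and Per3 mRNA are near their troughs. The comparison asked whether 80% oxygen moved Arntl one way and Dbp, Per and Nr1d genes the other, as a shift in phase would.

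Promoter stretches are shown for 4 of the members called below that hold 1 of 3 clock elements near a start site, to place each gene in the loop. RefSeq windows of 300 bases, from 250 before to 50 after a start on GRCm38.p6, were found for 9 of the 10 genes, and Per2 had none. The letters searched on both strands were the E-box CACGTG, the D-box TTATGNAA that DBP and its relatives bind, and AGGTCA, the core of the element bound by REV-ERB and ROR receptors. They stand in 7.15%, 3.385% and 16.26% of all 32851 windows, and no hit in these genes overlapped another. Capitals mark the element, and each stretch reads 5′ to 3′ on the strand of its gene.
Per3, 2 D-boxes, chr4:151044796-151044890, minus strand: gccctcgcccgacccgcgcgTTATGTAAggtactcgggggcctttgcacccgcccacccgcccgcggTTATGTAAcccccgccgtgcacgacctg
Cry1, E-box, chr10:85185089-85185134, minus strand: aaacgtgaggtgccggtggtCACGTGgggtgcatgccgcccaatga
Nr1d2, AGGTCA, chr14:18239158-18239203, minus strand: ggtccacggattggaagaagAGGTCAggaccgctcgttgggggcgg
Arntl, AGGTCA just after a start site, chr7:113207530-113207559, plus strand: aaggcagaaagtAGGTCAgggacggaggtg
Of the 2 Per1 windows, 1 held all 3 elements and the other held none of them, and 1 Clock window held AGGTCA. The windows of Dbp, Cry2 and Nr1d1 held none of these letters, which says nothing of elements elsewhere in those genes. A match is a description of the sequence, and binding was not measured.

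The total count per library ran from 1607111 to 4540288, so that 3 counts, taken as the floor, correspond to 0.661 to 1.87 CPM (counts scaled to a common library total). All CPM below are scaled by TMM, a correction for library composition, and floors cover counting error only. The library labelled Hyperoxia 1 stood apart, with correlations of log2 CPM of 0.721 to 0.833 with the other 12 libraries against 0.854 to 0.967 among those 12. Library names also fall into 2 letter sets, B to M (5 normoxic and 3 hyperoxic, Hyperoxia 1 among them) and O to S (2 normoxic and 3 hyperoxic). The sources do not say that these sets are batches, and the differences within each set are given beside the pooled ones.

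Of the 10 clock genes, 6 passed an adjusted p of 0.05 in edgeR's quasi-likelihood test, 3 higher in hyperoxia (Arntl, Clock and Cry1) and 3 lower (Dbp, Per3 and Nr1d2). Among all 12496 genes tested, 22.6% passed, 11.8% higher and 10.8% lower. The median log2 fold change of the 10 was −0.10, against −0.03 over all genes. Per1, Per2, Cry2 and Nr1d1 did not pass. The groups did not overlap in 2 of the 10, Per3 and Dbp, both lower, where 10.8% of all genes did not overlap, 5.6% higher and 5.23% lower. With a log2 fold change past 1.5 required as well, 1 clock gene remained, Dbp, against 3.91% of all genes. The count of 6 fell to 3 without Normoxia 1, without Normoxia 3 or without Hyperoxia 4, when Arntl, Clock and Nr1d2 lost their calls.

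**Figure D1:**
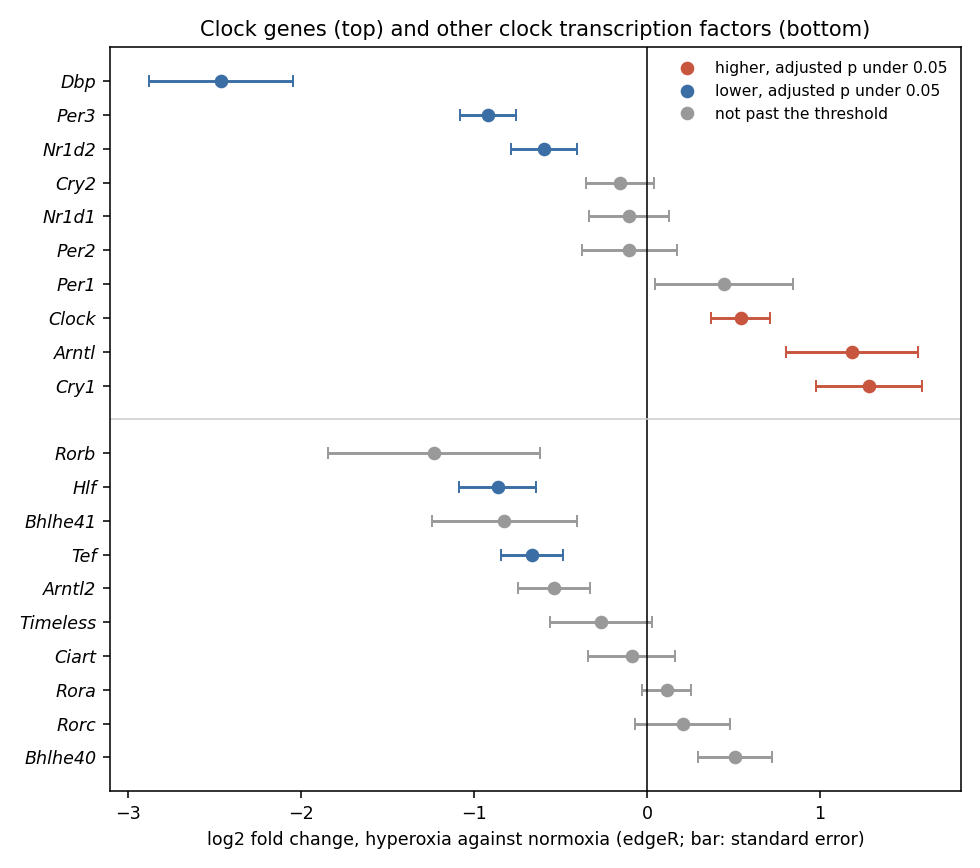
Log2 fold change of hyperoxia against normoxia (horizontal axis) with its standard error for the 10 clock genes above the line and 10 other clock transcription factors below it, coloured where the adjusted p was under 0.05. Dbp lies farthest to the left at −2.46 and Cry1 farthest to the right at 1.28.

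Dbp, a D-box binding factor and a direct output of BMAL1 and CLOCK, fell the most of the 10. The normoxic libraries 1 to 7 held 142, 89.1, 142, 74.0, 66.2, 29.3 and 36.9 CPM of Dbp. The hyperoxic libraries 1 to 6 held 4.83, 29.1, 9.03, 14.8, 14.7 and 16.4 CPM. Every hyperoxic library lay below every normoxic one, though Hyperoxia 2 at 29.10 and Normoxia 6 at 29.27 nearly met. The means were 82.8 ± 45.5 (SD, n = 7) and 14.8 ± 8.24 CPM (SD, n = 6), a log2 fold change of −2.46 (SE 0.42, edgeR adjusted p = 5.66e-04) or a 5.52-fold lower level. An exact two-sided permutation test of mean log2 CPM gave p = 0.00117, where 0.000583 is the smallest that these group sizes allow.

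The fall of Dbp differed in size between the letter sets. Mean log2 CPM differed by −3.07 in the B to M libraries and by −1.07 in the O to S libraries. Normoxia 6 and 7, the normoxic libraries of O to S, averaged 33.1 CPM against 103 CPM in the normoxic libraries of B to M. With the letter set as a term, the log2 fold change was −2.14 (adjusted p = 0.00246). On GRCm38, Dbp (chromosome 7, 45705088 to 45710203, plus strand) shares 539 exonic bases with Sphk2 on the opposite strand. Strand use in the counting is not given, so reads there cannot be told apart. Sphk2, a sphingosine kinase, stood at 158 ± 29.0 and 105 ± 45.3 CPM (SD, n = 7 and 6) and did not pass, with a log2 fold change of −0.59 (SE 0.22, edgeR adjusted p = 0.0688).

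**Figure D2:**
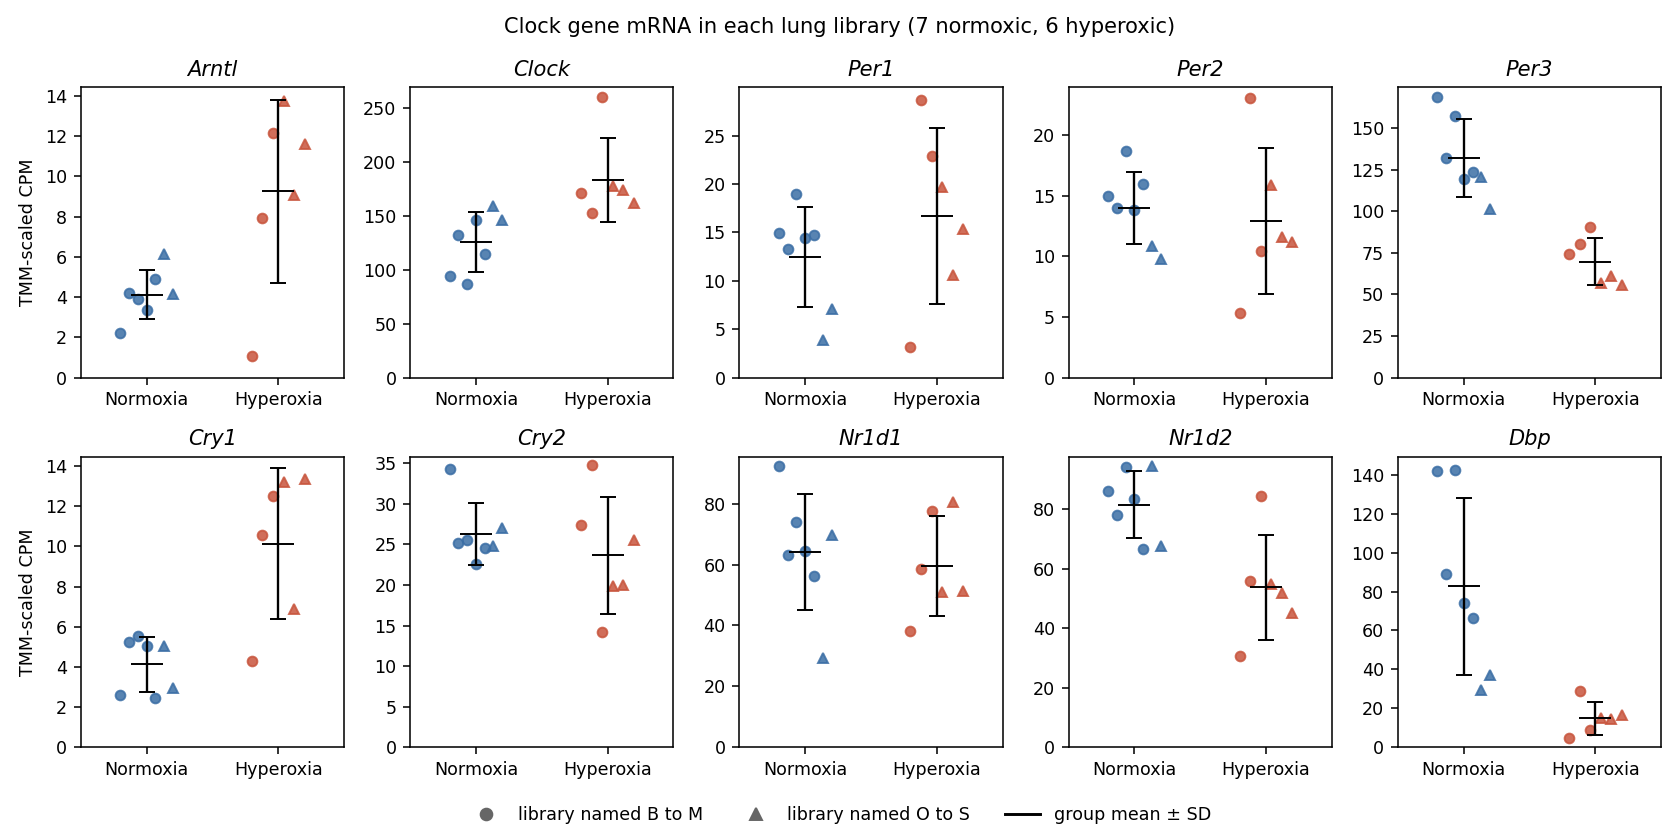
TMM-scaled CPM of the 10 clock genes (vertical axes, from 0) in each of 7 normoxic and 6 hyperoxic libraries, with circles for libraries named B to M, triangles for O to S, and bars for the group mean ± SD. Per3 and Dbp do not overlap between the groups, and Hyperoxia 1 is the lowest library for Arntl at 1.07 CPM.

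Arntl and Clock, the activators of the loop, were both higher. Arntl was scarce, with 2 to 53 counts per library. Its normoxic libraries 1 to 7 held 2.24, 4.19, 3.92, 3.36, 4.90, 6.13 and 4.16 CPM. Its hyperoxic libraries 1 to 6 held 1.07, 7.94, 12.2, 13.7, 9.06 and 11.6 CPM. Thus 5 of 6 hyperoxic libraries lay above all normoxic ones and Hyperoxia 1 lay below them all. That library had 2 Arntl counts, under the floor, and its exact 95% Poisson interval of 0.130 to 3.87 CPM, for counting error alone, lies below the other 5 hyperoxic values.

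The means of Arntl were 4.13 ± 1.21 (SD, n = 7) and 9.26 ± 4.53 CPM (SD, n = 6), with a log2 fold change of 1.18 (SE 0.38, edgeR adjusted p = 0.0340). The exact permutation test did not pass (p = 0.0956). Without Hyperoxia 1 the log2 fold change was 1.41 (edgeR adjusted p = 6.81e-04). The call was lost without Normoxia 1, 2, 3, 4 or 7 or without Hyperoxia 3, 4, 5 or 6, with adjusted p of 0.0517 to 0.0786. It was also lost with the letter set as a term (log2 fold change 1.05, adjusted p = 0.0600), with library size in place of TMM (adjusted p = 0.0513), with limma-voom (adjusted p = 0.111) and with limma on the deposited values (adjusted p = 0.186). Mean log2 CPM differed by 0.43 in the B to M libraries and by 1.06 in the O to S libraries. An antisense gene shares 33 exonic bases with Arntl (chromosome 7, 113207465 to 113314126, plus strand).

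Clock, the partner of BMAL1, ranged from 86.7 to 159 CPM in normoxia (median 132) and from 153 to 261 CPM in hyperoxia (median 173). Only Hyperoxia 2 lay inside the normoxic range, and Hyperoxia 3 was the highest. The means were 126 ± 27.7 (SD, n = 7) and 183 ± 39.1 CPM (SD, n = 6), with a log2 fold change of 0.54 (SE 0.17, edgeR adjusted p = 0.0329) and an exact permutation p of 0.00291. The difference was 0.75 within B to M and 0.16 within O to S. The call was lost without Normoxia 1, 3 or 5 or Hyperoxia 3 or 4, with adjusted p of 0.0503 to 0.0641. It was also lost with library size in place of TMM (adjusted p = 0.0625) and with limma on the deposited values (adjusted p = 0.0728).

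Among the repressors, Cry1 rose and Per3 fell. Cry1 ranged from 2.45 to 5.56 CPM in normoxia (median 5.02) and from 4.29 to 13.3 CPM in hyperoxia (median 11.5), on 4 to 61 counts per library. All hyperoxic libraries but Hyperoxia 1 lay above every normoxic one. The means were 4.13 ± 1.38 (SD, n = 7) and 10.1 ± 3.75 CPM (SD, n = 6), with a log2 fold change of 1.28 (SE 0.31, edgeR adjusted p = 0.00691) and an exact permutation p of 0.00583. The difference was 0.96 within B to M and 1.32 within O to S. Cry1 passed under all 20 alternatives in which it could be fitted.

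Per3 ranged from 101 to 169 CPM in normoxia (median 124) and from 55.5 to 90.3 CPM in hyperoxia (median 67.7). No library of one group reached the other. The means were 132 ± 23.4 (SD, n = 7) and 69.7 ± 14.1 CPM (SD, n = 6), with a log2 fold change of −0.92 (SE 0.16, edgeR adjusted p = 7.25e-04) and an exact permutation p of 0.000583, the smallest possible. It fell within both letter sets, by 0.77 and 0.93 on the log2 scale, and passed under all 21 alternatives. Per3 (chromosome 4, 151003652 to 151044665, minus strand) lies inside Camta1 on the same strand without shared exonic bases, and Camta1 had a log2 fold change of 0.05 (edgeR adjusted p = 0.890).

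The other PER and CRY genes did not pass. Per1, an early responder to light and to glucocorticoids, stood at 12.5 ± 5.16 and 16.7 ± 9.08 CPM (SD, n = 7 and 6), with a log2 fold change of 0.44 (SE 0.40, edgeR adjusted p = 0.470) and a 95% interval of −0.34 to 1.23. Its difference was −0.19 within B to M and 1.37 within O to S, where Normoxia 6 held 3.90 CPM and Normoxia 7 held 7.14 CPM. Within B to M, Hyperoxia 1 held 3.22 CPM of Per1, while Hyperoxia 2 and 3 held 28.7 and 22.9 CPM, above every normoxic library. Without Hyperoxia 1 the log2 fold change of Per1 was 0.66 (edgeR adjusted p = 0.139). Per2 stood at 14.0 ± 2.99 and 12.9 ± 6.00 CPM, with a log2 fold change of −0.10 (SE 0.28, edgeR adjusted p = 0.829) and an interval of −0.64 to 0.44. Cry2 stood at 26.3 ± 3.81 and 23.6 ± 7.16 CPM, with a log2 fold change of −0.16 (SE 0.20, edgeR adjusted p = 0.616) and an interval of −0.54 to 0.23. These intervals leave room for changes in either direction.

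The REV-ERB genes gave different results, though the difference between them was not tested. Nr1d2 ranged from 66.8 to 94.5 CPM in normoxia (median 83.4) and from 30.6 to 84.4 CPM in hyperoxia (median 53.4). All hyperoxic libraries but Hyperoxia 3 lay below every normoxic one. The means were 81.6 ± 11.3 (SD, n = 7) and 53.8 ± 17.7 CPM (SD, n = 6), with a log2 fold change of −0.60 (SE 0.19, edgeR adjusted p = 0.0328) and an exact permutation p of 0.00583. The difference was −0.62 within B to M and −0.66 within O to S. The call was lost without Normoxia 1, 2, 3, 4 or 6 or Hyperoxia 2, 4, 5 or 6, with adjusted p of 0.0575 to 0.0758, and with no filter on low counts (adjusted p = 0.0614).

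Nr1d1 ranged from 29.3 to 92.2 CPM in normoxia and from 38.1 to 80.6 CPM in hyperoxia, so that all 6 hyperoxic libraries lay inside the normoxic range. The log2 fold change was −0.11 (SE 0.23, edgeR adjusted p = 0.787), with an interval of −0.56 to 0.34. Its 3′ end on chromosome 11 (98767932 to 98775333, minus strand) overlaps Thra, the thyroid hormone receptor alpha gene, on the opposite strand over 263 exonic bases. Thra fell from 59.1 ± 13.3 to 32.1 ± 10.4 CPM (SD, n = 7 and 6), with a log2 fold change of −0.87 (SE 0.22, edgeR adjusted p = 0.00950). How reads of the shared bases were assigned is not given.

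**Figure D3:**
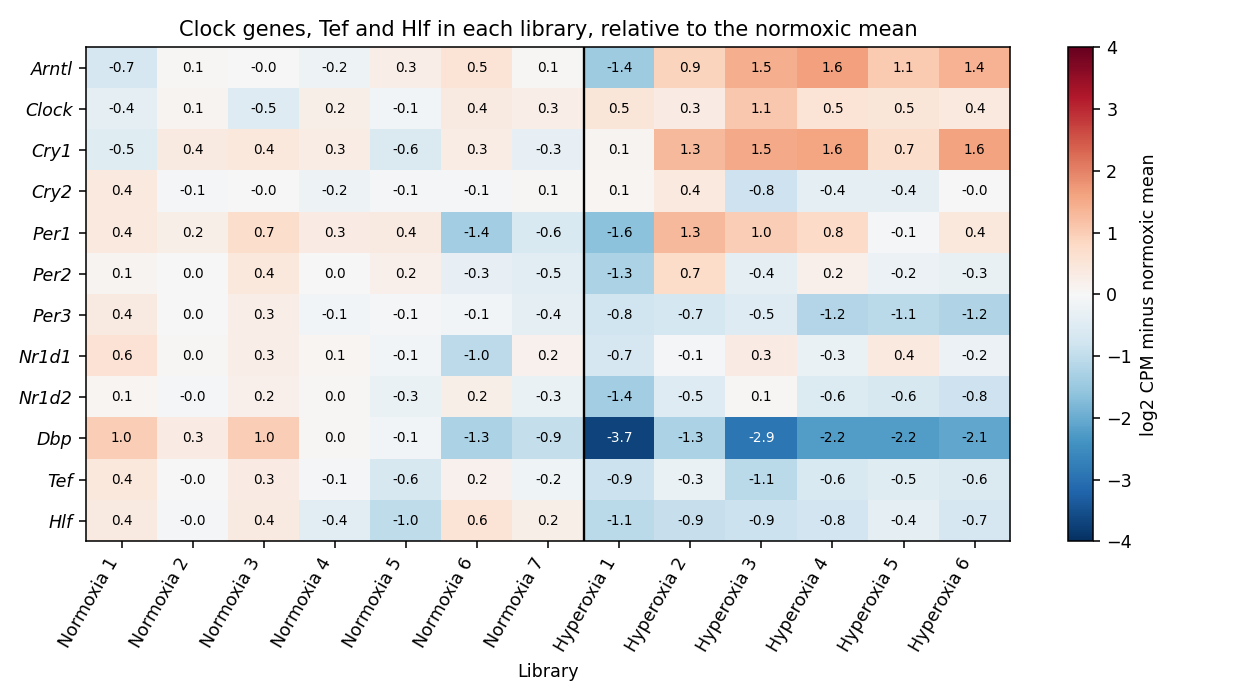
Log2 CPM of the 10 clock genes, Tef and Hlf in each of 13 libraries, minus the normoxic mean of the gene, from blue (lower) to red (higher). Dbp, Per3, Tef and Hlf are below their normoxic mean in all 6 hyperoxic libraries, and Arntl is above it in 5 of 6.

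Read as a pattern, Arntl and Dbp moved in opposite directions. The difference in log2 CPM, Arntl minus Dbp, ran from −5.62 to −2.14 in normoxia (median −4.21) and from −1.79 to 0.40 in hyperoxia (median −0.57), without overlap, as a description of genes already tested. In Hyperoxia 1 it was −1.66, with both genes at their lowest. Of the 8 genes driven by BMAL1 and CLOCK (the Per, Cry and Nr1d genes and Dbp), 3 were lower, 1 was higher (Cry1) and 4 did not pass, where 10.8% of all genes were lower and 11.8% higher. Higher Arntl with lower Dbp, Per3 and Nr1d2 is the arrangement that a shifted phase would give, while Per1, Per2 and Nr1d1 did not pass in either direction. The calls of Arntl and Nr1d2 held in only 6 of 20 and 10 of 21 alternatives. Wee1, a rhythmic gene with E-boxes in its promoter, was higher, with a log2 fold change of 1.42 (edgeR adjusted p = 0.00189). With 1 time of sampling, a shift in phase, a smaller amplitude and a lasting change in level cannot be told apart. In whole lung, fewer cells of a type and less RNA per cell cannot be told apart either.

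**Figure D4:**
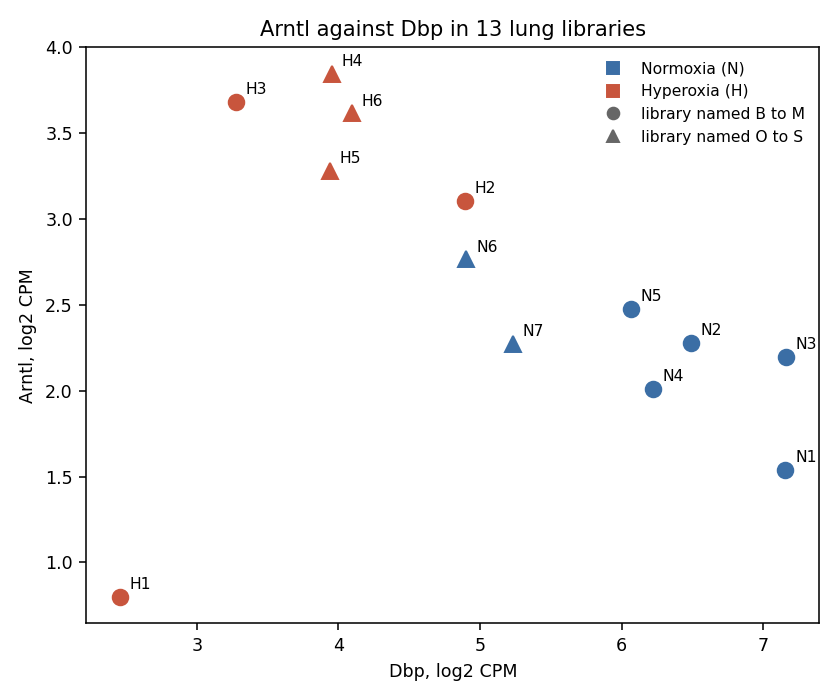
Log2 CPM of Arntl (vertical axis) against Dbp (horizontal axis) in 13 libraries, by group (colour) and letter set (shape). Hyperoxic libraries lie at low Dbp, 5 of them with Arntl above all normoxic libraries, while Hyperoxia 1 is low in both.

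Within a group, Arntl was not reliably tied to the other members. Over 18 relations (9 genes in each group), 0 passed after adjustment, with a smallest adjusted p of 0.204 by exact permutation, and 2 had an unadjusted p under 0.05. In normoxia, Arntl and Nr1d1 gave r = −0.86 (exact permutation p = 0.0226, n = 7) and rho = −0.89 (p = 0.0123), and r = −0.53 without Normoxia 1 and 6. Arntl and Dbp gave r = −0.73 in normoxia (exact permutation p = 0.0623, n = 7) and 0.66 in hyperoxia (p = 0.228, n = 6), with rho = −0.68 (p = 0.110) and 0.14 (p = 0.803). Without the 2 libraries farthest from the median of Arntl, these became −0.21 and −0.82, so the hyperoxic value turned sign. In hyperoxia, Arntl and Cry1 gave r = 0.90 (exact permutation p = 0.0208, n = 6), rho = 0.77 (p = 0.103) and r = 0.61 without Hyperoxia 1 and 4.

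Deviations from the group mean over the 13 libraries, as a description, tied Dbp to Per2 (r = 0.84) and to Per1 (0.82) and set it against Clock (−0.70). The points share depth and library. Of 10104 other genes that averaged 3 or more on the log2 CPM scale, those most like Arntl were Rps6ka3 (r = 0.98), Mgat4a (0.98), Slc6a18 (0.97), Hsd17b7 (0.96) and Wdpcp (0.95), and without Hyperoxia 1 these were 0.91, 0.90, 0.88, 0.82 and 0.79. Those most like Dbp were Ap1s1 (0.96), Smim6 (0.96), Ranbp3 (0.95), Rhog (0.95) and Uck1 (0.94).

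Tef and Hlf, relatives of Dbp, were also lower. They encode PAR bZIP factors that bind the same D-box. Tef stood at 103 ± 23.7 in normoxia and 64.8 ± 12.4 CPM in hyperoxia (SD, n = 7 and 6), with a log2 fold change of −0.66 (SE 0.18, edgeR adjusted p = 0.0134). Hlf stood at 63.5 ± 21.0 and 34.9 ± 6.08 CPM, with a log2 fold change of −0.86 (SE 0.22, edgeR adjusted p = 0.0108). Both differed in the same direction within each letter set, by −0.74 and −0.55 for Tef and by −0.81 and −1.001 for Hlf. Of 12 other clock transcription factors, 10 could be tested, and these were the 2 that passed, with 0 higher, a share near the 22.6% called over all genes. The other 8 had log2 fold changes from −1.23 (Rorb, edgeR adjusted p = 0.166) to 0.51 (Bhlhe40, adjusted p = 0.103). Npas2, a relative of Clock, and Nfil3, a repressor at the D-box, were too low to test. Without Hyperoxia 1, when 28.5% of all genes passed, the count was 4, adding Nfil3 (log2 fold change 1.37, edgeR adjusted p = 0.0464) and Bhlhe40 (0.62, adjusted p = 0.0299).

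The kinases and ubiquitin ligases that set the stability of PER and CRY proteins included 10 tested of 11. Of these, 4 were higher and 0 lower, where 11.8% of all genes were higher and 10.8% lower. Their median log2 fold change was 0.47, against −0.03 over all genes. Csnk1a1 (casein kinase 1 alpha) rose by 0.79 on the log2 scale (edgeR adjusted p = 0.00218), and its groups did not overlap. Csnk1e (casein kinase 1 epsilon) rose by 0.58 (adjusted p = 0.0162), and Csnk2a2 and Csnk2a1, catalytic subunits of casein kinase 2, by 0.51 and 0.52 (adjusted p = 0.0243 and 0.0418). Csnk1d, Gsk3b and Btrc were among those that did not pass.

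Of 8 other genes that cycle in many organs, 3 rose, 0 fell and 5 did not pass, where 11.8% of all genes were higher. All 8 had a log2 fold change above 0, as had 5970 of the 12496 genes tested, with a median of 0.66 against −0.03 over all genes. Lonrf3 rose from 5.60 ± 1.52 to 15.7 ± 1.90 CPM (SD, n = 7 and 6), with a log2 fold change of 1.49 (edgeR adjusted p = 2.36e-04). Wee1, a cell cycle kinase with E-boxes in its promoter, rose from 11.0 ± 3.37 to 29.4 ± 13.9 CPM, with a log2 fold change of 1.42 (edgeR adjusted p = 0.00189). The groups did not overlap in either. Coq10b rose by 0.97 on the log2 scale (edgeR adjusted p = 0.0329), with Hyperoxia 1 at 13.9 CPM among the normoxic libraries. Without Hyperoxia 1, 7 of 8 passed, and calls over all genes rose as well, to 28.5%.

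Glucocorticoids reset peripheral clocks and induce Per1, so their targets were counted as well. Of 9 such genes, Tsc22d3 of the rhythmic list among them, 8 were tested, 2 rose, 0 fell and 6 did not pass, a share near the 22.6% called over all genes. Over all genes, 11.8% were higher and 10.8% lower. All 8 had a log2 fold change above 0, as had 5970 of the 12496 genes tested, with a median of 0.52 against −0.03 over all genes. Fkbp5, a co-chaperone of the glucocorticoid receptor, rose from 7.35 ± 2.44 to 33.7 ± 19.4 CPM (SD, n = 7 and 6), with a log2 fold change of 2.18 (edgeR adjusted p = 7.54e-04). Hyperoxia 1 held 6.43 CPM, inside the normoxic range, while the other 5 hyperoxic libraries held 19.7 to 60.5 CPM. Zbtb16, a zinc finger factor, rose from 27.7 ± 9.65 to 70.0 ± 22.8 CPM, with a log2 fold change of 1.33 (edgeR adjusted p = 0.00122) and no overlap. Without Hyperoxia 1, 5 of 8 passed, against 28.5% of all genes.

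Markers of other lung cells were counted in the same fit. Over all genes, 11.8% were higher and 10.8% lower. Of 4 club cell markers, 2 fell and 0 rose, and their summed level was 14492 to 53126 CPM in normoxia and 185 to 10088 CPM in hyperoxia. Nearly all of this sum was 1 gene, the secretoglobin Scgb1a1, with 13447 to 51496 CPM in normoxia and 162 to 9239 CPM in hyperoxia. Normoxia 6 and 7, lowest of the normoxic libraries in Dbp, were also the lowest in this sum at 14492 and 23521 CPM, and Hyperoxia 1, lowest of all in Dbp, was lowest of all at 185 CPM. Of 5 alveolar type 2 markers 4 fell (12072 to 22656 against 3094 to 6684 CPM), and of 5 general capillary markers 4 fell (1192 to 1697 against 603 to 685 CPM). These sums did not both follow the order of Dbp. In the alveolar type 2 sum, Normoxia 6 and 7 were again the lowest normoxic libraries, but Hyperoxia 3 was lowest of all at 3094 CPM. In the general capillary sum, Normoxia 6 was highest of all at 1697 CPM. In these 3 lists, 1 marker had a library at 0, Aplnr of general capillary cells. In other lists, aerocyte markers gave 2 higher and 2 lower of 4, fibroblast 1 and 1 of 4, smooth muscle 2 higher of 5, cardiac muscle 2 lower of 5, alveolar macrophage 1 higher and 2 lower of 5, alveolar type 1 lower in 1 of 5, T cell lower in 1 of 1, and neutrophil 0 of 3. Their part in the clock gene differences was not tested.

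**Figure D5:**
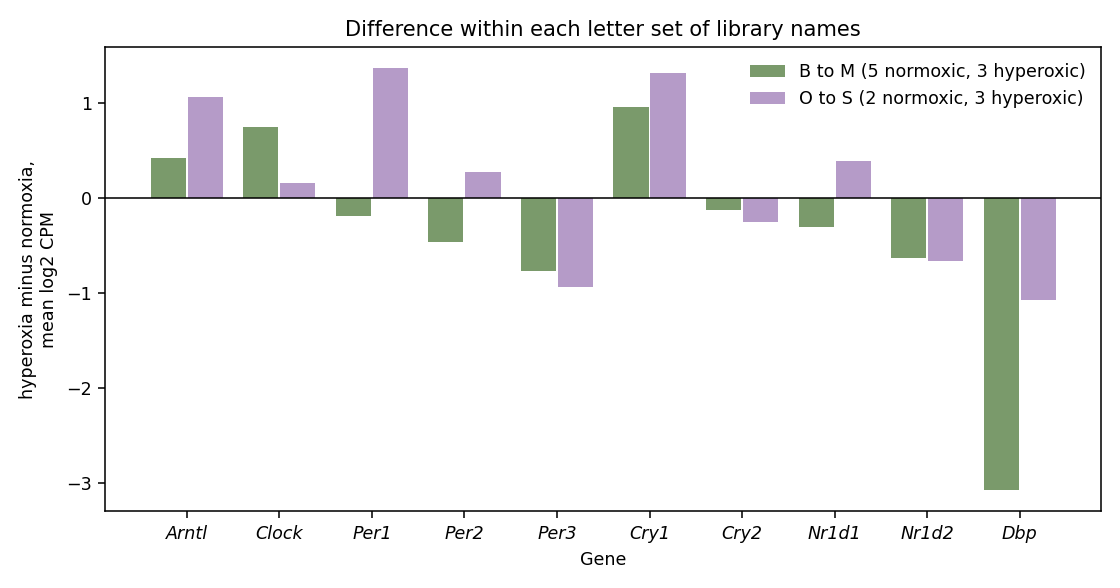
Hyperoxia minus normoxia in mean log2 CPM of each clock gene within libraries named B to M (5 normoxic, 3 hyperoxic) and within O to S (2 normoxic, 3 hyperoxic), as bars from 0. Arntl, Clock, Cry1, Per3, Cry2, Nr1d2 and Dbp have the same sign in both sets, and Per1, Per2 and Nr1d1 have opposite signs.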

How the data were processed

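Lung RNA of 13 mice was read by Quant-seq, 1 library each. The authors pseudoaligned reads with kallisto in BioJupies and deposited whole-number counts per gene symbol, without normalization, and log10 of CPM plus 1. mm10 and limma 3.54.2 are named in the submitters' processing notes. The deposited log10 values entered 1 alternative, rescaled to log2. Groups came from the sample labels, and 0 columns were left unmapped.

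Counts went through edgeR 4.0.16 in R 4.3.3 (TMM, filterByExpr, glmQLFit, then glmQLFTest), with Benjamini-Hochberg adjustment over all 12496 genes. Log2 CPM used a prior count of 2. Standard errors are each gene's log2 fold change over the root of its F value, and 95% intervals are normal ones from that error. Single genes also had an exact two-sided permutation test over libraries. Alternatives used DESeq2 1.42.0, limma 3.58.1 (voom, and the deposited log values), library size only, no low-count filter, a minimum of 10 counts in each library, a replicate block, the letter set, and each library left out in turn. The fits were tested on simulated data. The libraries are separate mice, and same-group libraries differed by more than sampling noise in all 36 pairs. The exact symbols of the 10 genes fixed the members. Members and lists were chosen with earlier results of these data known. Named genes were the members, up to 5 called genes of each list, genes overlapping a member, and the 5 most like Arntl and Dbp. Nfil3, Bhlhe40, Npas2, Rorb, Tsc22d3, Scgb1a1, Camta1 and the marker Aplnr were named after their values were seen, as were list members that did not pass. Gene coordinates are from a GRCm38 annotation, the same build as mm10, and promoter windows are from RefSeq. The B cell marker list is not reported here.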

Additional observations from a re-analysis of the deposited data

Results flagged for a closer look

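Dixon's ratio, the gap of an extreme library to its neighbour over the range of its group, was above the 95% critical value in 5 of 24 groups examined, where chance flags about 1 in 20. For Arntl, Hyperoxia 1 lay below the other hyperoxic libraries (ratio 0.756). For Clock, Hyperoxia 3 lay above them (0.714). For Nr1d1, Normoxia 6 lay below the other normoxic libraries (0.569). Normoxia 5 had a total count apart from its group (0.612). Hyperoxia 1 also correlated less, on average, with the rest of the libraries (ratio 0.763).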

How the results depend on the processing

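Per3, Dbp and Cry1 kept their direction and passed in every alternative in which they could be fitted. Arntl passed in 6 of 20, Clock in 13 of 21 and Nr1d2 in 10 of 21, with log2 fold changes of 0.75 to 1.41, 0.44 to 0.62 and −0.75 to −0.47. Per2 turned to 0.000359 without Normoxia 3 and 0.058 without Hyperoxia 1 (from −0.31 to 0.058 with 1 library left out), and Nr1d1 to 0.022 without Normoxia 1 and 0.0098 without Hyperoxia 1 (from −0.22 to 0.022). Both missed the threshold throughout. Over all genes, the median log2 fold change moved from −0.03 to −0.10 with library size only and to −0.16 with limma on the deposited values.

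Of the clock genes, 3 were called (1 higher) with at least 10 counts in every library, which removes Arntl, Cry1, Per1 and Dbp from testing, and 1 was higher with library size only and with limma on the deposited values. Past a log2 fold change of 1.5, 1 was called (0 higher, 1 lower). At least 10 counts left 1 glucocorticoid-responsive gene. With 1 library left out, 3 to 6 clock genes were called (1 to 3 higher, 2 to 3 lower), 2 to 4 other clock factors, 3 to 5 kinases and ligases, 2 to 7 rhythmic genes and 2 to 5 glucocorticoid-responsive genes. Calls over all genes then ran from 2305 to 3633, and were 2403 with at least 10 counts in every library. Apart from these constructions the cause was not tested.

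Replicate numbers are shared by the groups but did not pair the libraries (r of −0.33 to 0.27 over 6 pairs, 1 over 0.1, and 1 normoxic library was closest to its own number). With the replicate block, 3 clock genes were called (1 higher), while Arntl, Clock and Nr1d2 lost their calls (adjusted p = 0.120, 0.121 and 0.0631). Under it, 0 other clock factors and 1 kinase or ligase were called, and 1344 of all genes against 2819. Arntl and Cry1 had the fewest counts of the members, down to 2 and 4 in a library.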
